A study of Mus musculus with 72 samples.

Results

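The genes described are 10 genes of the endoplasmic reticulum (ER). They are given as the chaperones and folding enzymes Hspa5, Hsp90b1, Pdia4, Pdia6, Calr and Sdf2l1, and the stress-responsive genes Dnajb9, Herpud1, Manf and Creld2. This split was made after the values were seen, and the chaperones rise with stress too. All 10 genes were found by gene symbol in the count table, which lists 55401 genes for 72 libraries. All were measured and passed the filter on low counts. The libraries are RNA-seq of brain from C57Bl/6 (substrain C57Bl/6NTac) mouse pups, 1 pup each. The sources name the tissue as right hemisphere, as cortex and as forebrain in different places. The exposure windows are named as in the study. In "PND1", pups were exposed in utero through the dam's implanted minipump (10 mg/kg/day). Their brains were removed on day 1, 6 h after discovery of the litter. In "PND14", pups received 2 injections a day (10 mg/kg) from day 1 to day 14. In "3-Tri", pups had both exposures and were also taken at day 14. The day 14 brains were removed 6 h after the last injection of morphine or saline. Each window had a morphine and a saline arm, and each arm pups labelled male and female. At PND1 the groups held 4 female and 6 male morphine pups, and 7 female and 7 male saline pups. At PND14 and 3-Tri all 8 groups held 6 pups. Saline arms had the same treatment without the drug, and litters of implanted dams that were kept beyond birth went to surrogate dams. The litters were not given. A number in the day 14 sample IDs differs between the drug arms and may mark litters, so at day 14 drug and ID number cannot be told apart. At PND1 the drug came through the dam, so pups of a litter shared an arm, and drug and litter cannot be told apart. In every window pups of a group may not be independent, and p-values measure the spread between these pups only.

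In the ER lumen, secreted and membrane proteins fold with the help of these proteins. When unfolded protein builds up, the sensors ATF6, IRE1 (gene Ern1) and PERK (gene Eif2ak3) start the unfolded protein response: ATF6 and the spliced form of Xbp1 raise chaperone genes, and PERK works through ATF4 and CHOP. Neurons and the myelinating and secretory cells of the brain make much membrane protein, and the chaperones rise with secretory load as well as with stress.

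Total counts ran between 20742862 and 27333125 per library at PND1, between 4407544 and 21404819 at PND14 and between 3113919 and 19938980 at 3-Tri. PND14 female morphine replicate 4 and 3-Tri male saline replicate 1 had the fewest. CPM below are read counts divided by the library size scaled by TMM. The X-inactivation and Y-linked transcripts went against the sex label in 4 of 24 PND1 libraries, 1 in each group, and in 12 of 24 3-Tri libraries, 4 of 6 in each morphine group and 2 of 6 in each saline group. At PND14 this was 0 of 24. No library was moved, and comparisons by sex label are therefore doubtful at 3-Tri and, with fewer such libraries, uncertain at PND1. Neuronal, astrocyte and oligodendrocyte markers were present throughout. The hindbrain and spinal cord Hox markers summed to at most 0.911 CPM at day 14, and to between 0 and 70.4 CPM over the PND1 libraries (6 of 7 markers measured).

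ATF6 binds, with the CCAAT-binding factor NF-Y, the ER stress response element (ERSE), which is CCAAT, 9 spacer bases and CCACG, and a shorter element, ERSE-II, is ATTGG, 1 spacer base and CCACG. RefSeq promoters (GRCm38.p6) were at hand for 9 members; Manf had none. Both strands of the 250 bases before each RefSeq start were searched. ERSE was found in 5 of these 9 genes (Hspa5, Hsp90b1, Pdia6, Calr and Creld2), against 0.13% of 27025 genes with a promoter. ERSE-II was found in Herpud1 alone of the 9, against 0.037% of genes. The UPRE core TGACGTGG, a sequence that XBP1 binds, was found in 0 of 9 members and 0.603% of genes, and Pdia4, Sdf2l1 and Dnajb9 held no full ERSE in this window. The matching stretches are shown because this is the element through which ATF6 is known to act on chaperone genes; capitals mark the fixed letters of the element, and lower case its spacer and flanks.
Hspa5, chr2:34772020-34772048, plus strand: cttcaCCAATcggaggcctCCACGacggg
Hsp90b1, chr10:86705528-86705661, minus strand: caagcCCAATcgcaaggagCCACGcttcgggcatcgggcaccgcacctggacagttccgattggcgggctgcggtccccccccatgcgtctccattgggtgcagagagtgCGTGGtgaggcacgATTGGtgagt
Pdia6, chr12:17266486-17266514, plus strand: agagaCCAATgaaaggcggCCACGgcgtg
Calr, chr8:84847070-84847098, minus strand: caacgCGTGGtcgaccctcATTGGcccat
Creld2, chr15:88819515-88819543, plus strand: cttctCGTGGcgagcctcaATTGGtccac
Herpud1, chr8:94386372-94386392, plus strand: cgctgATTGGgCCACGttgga
Counted back from the RefSeq start used for the promoter, which can differ from the gene start in the annotation of the counts, the element spanned bases -65 to -47 in Hspa5, -98 to -80 in Pdia6, -162 to -144 in Calr, -126 to -108 in Creld2 and -52 to -42 in Herpud1. Hsp90b1 held 2 matches, one on each strand, at -212 to -194 and -107 to -89. In Calr and Creld2 the element lay on the opposite strand and reads CGTGG first. The half-sites alone were common: CCACG lay in 8 of 9 members and 31.0% of genes, and CCAAT in 9 of 9 and 37.5%. The members were chosen as ER chaperone and stress genes, the kind of gene on which this element is known to act. Their share of matches above that of all genes is therefore a description and no finding. A match describes the letters and shows no binding.

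In the annotation Hsp90b1 overlaps 1810014B01Rik, Gm15344 and Gm25745, Pdia6 overlaps Atp6v1c2, Herpud1 overlaps Gm15890, Manf overlaps Dcaf1, Rbm15b, Gm37612 and 4930524O07Rik, and Pdia4 and Dnajb9 each overlap a microRNA gene, so the counts of these 6 members are uncertain where reads could belong to either gene.

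The members spanned a wide range of expression. Compared per kilobase of exon, the mean over saline PND1 libraries was highest for Calr, a calcium-binding lectin chaperone, at 77.0 ± 8.37 CPM per kb (SD, n = 14). Hspa5 (BiP, the ER Hsp70 that also holds the stress sensors inactive), Manf (a secreted ER protein known to protect neurons), Pdia6 (a disulfide isomerase) and Hsp90b1 (GRP94, the ER Hsp90) followed between 35.6 and 29.3 CPM per kb, and Hspa5 and Manf, at 35.6 ± 3.51 and 34.3 ± 1.47, differed by less than the spread. Pdia4, another disulfide isomerase, and Creld2, an ER-resident secreted factor, were at 16.6 and 13.7 CPM per kb. Herpud1, a membrane protein of ER-associated degradation, and Dnajb9 (ERdj4, an Hspa5 co-chaperone) were at 10.8 and 8.37 CPM per kb. Sdf2l1, a partner of an ER DnaJ co-chaperone, was lowest at 2.605 ± 0.586. At PND14 the order in saline pups was Calr, Hspa5, Hsp90b1, Manf, Pdia6, Pdia4, Dnajb9, Herpud1, Creld2 and Sdf2l1, with Calr at 141 ± 9.06 and Sdf2l1 at 8.27 ± 1.06 CPM per kb (n = 12). Dnajb9 and Herpud1, at 15.9 ± 0.975 and 15.6 ± 0.832, did not differ beyond their spread.

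**Figure D1:**
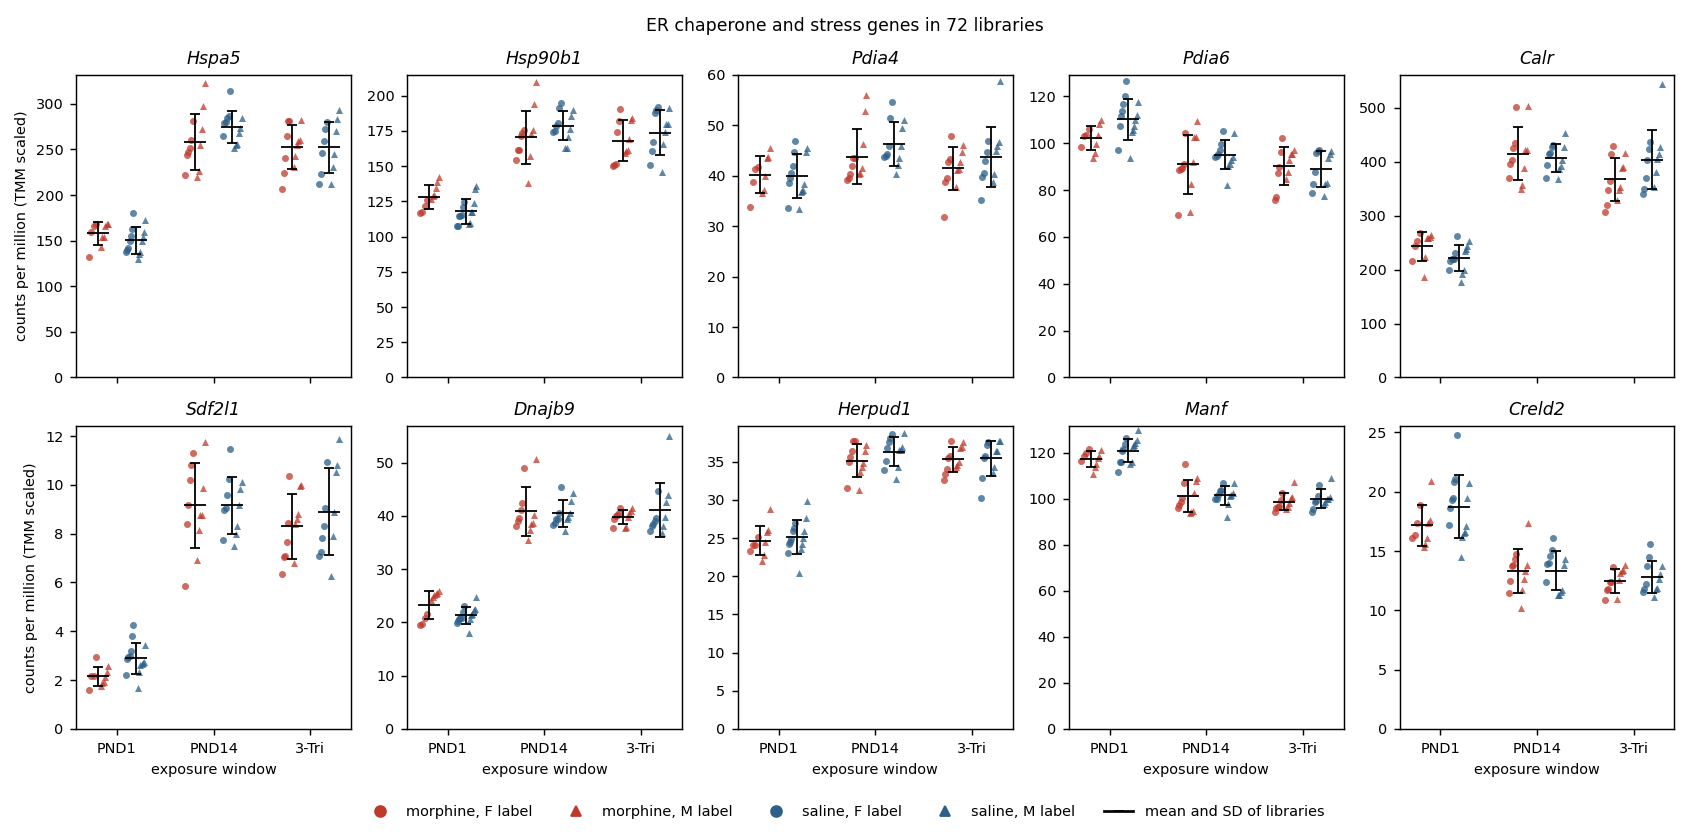
CPM (linear axis starting at 0) of each gene in all 72 libraries by exposure window, morphine in red to the left of saline in blue, circles for pups labelled female and triangles for male, with mean and SD. Hspa5, Calr, Sdf2l1, Dnajb9 and Herpud1 separate day 14 from day 1 completely, and the morphine and saline points overlap within each window in every panel.

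The first comparison asks how the genes differ between day 14 and day 1. The difference was mixed in direction, and its size was no larger than that over all genes tested. In morphine pups the median absolute log2 fold change was 0.47 over the members and 0.57 over all genes. In saline pups it was 0.56 and 0.58. In PND14 pups, Sdf2l1 rose 4.28-fold in morphine and 3.20-fold in saline pups, and the Hspa5, Calr and Dnajb9 transcripts rose by between 1.64 and 1.90-fold. Hsp90b1 and Herpud1 rose less, and Creld2, Manf and Pdia6 fell. The age at dissection cannot be told apart from the route and length of exposure or from whatever else differed between the cohorts. In whole tissue, fewer cells of a type and less RNA per cell cannot be told apart either.

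Sdf2l1 had between 5.85 and 11.7 CPM in the 24 PND14 libraries (median 9.11), against between 1.58 and 4.24 CPM in the 24 PND1 libraries (median 2.596). The ranges did not overlap. Its log2 fold change was 2.10 in morphine pups (SE 0.115, adjusted p 4.53e-27, edgeR quasi-likelihood with Benjamini-Hochberg over all genes) and 1.68 in saline pups (SE 0.0976, adjusted p 8.15e-26).

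Dnajb9 lay between 35.5 and 50.7 CPM at PND14 (median 39.5), against 18.1 to 26.0 CPM at PND1 (median 21.6). Its log2 fold change was 0.83 in morphine pups (SE 0.0476, adjusted p 3.89e-26, edgeR) and 0.92 in saline pups (SE 0.0424). Hspa5 was at 219.7 to 322.4 CPM (median 266), against 130 to 181 CPM (median 154), with log2 fold changes of 0.71 in morphine and 0.87 in saline pups. Calr was at 350.2 to 503 CPM (median 409), against 178 to 268 CPM (median 233), with 0.76 in morphine and 0.87 in saline pups. Herpud1 was at 31.4 to 38.8 CPM, against 20.4 to 29.8 CPM, and rose by 0.51 in morphine and 0.53 in saline pups. All 5 of these genes (Sdf2l1, Dnajb9, Hspa5, Calr and Herpud1) were higher in each of the 48 libraries of day 14, PND14 and 3-Tri alike, than in every PND1 library. Over the 22010 genes tested 17.4% did so.

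Hsp90b1, the ER Hsp90, was at 138 to 209.9 CPM at PND14 (median 175), against 107 to 143 CPM at PND1 (median 121). Its log2 fold change was 0.42 in morphine and 0.60 in saline pups (SE 0.0505 and 0.0453). Pdia4 had 0.12 in morphine pups (SE 0.0633, adjusted p 0.0649), which did not pass, and rose by 0.21 in saline pups (SE 0.0568, adjusted p 0.000503). Of the 10 members, 6 rose and 3 fell in morphine pups, where 41.8% of 22010 genes rose and 41.6% fell (83.5% in all). In saline pups 7 rose and 3 fell, where 41.7% rose and 43.2% fell (84.9% in all). Against such a background the number of members called is no result about them.

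Pdia6, Manf and Creld2 ran the other way. Creld2 lay between 10.2 and 17.3 CPM at PND14 (median 13.8), against 14.5 to 24.8 CPM at PND1 (median 17.4), and its log2 fold change was -0.36 in morphine and -0.49 in saline pups (SE 0.0672 and 0.0610). Manf lay between 92.0 and 115 CPM, against 111 to 129.7 CPM, with -0.22 in morphine and -0.25 in saline pups (SE 0.0295 and 0.0268). Pdia6 lay between 69.2 and 109.6 CPM, against 93.5 to 126 CPM, with -0.16 in morphine and -0.21 in saline pups (SE 0.0545 and 0.0495). Of the 10 members, Manf was the most even within groups, with an SD of 0.0649 on the log2 scale after the group means were removed, and Sdf2l1 the least, with 0.264.

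**Figure D2:**
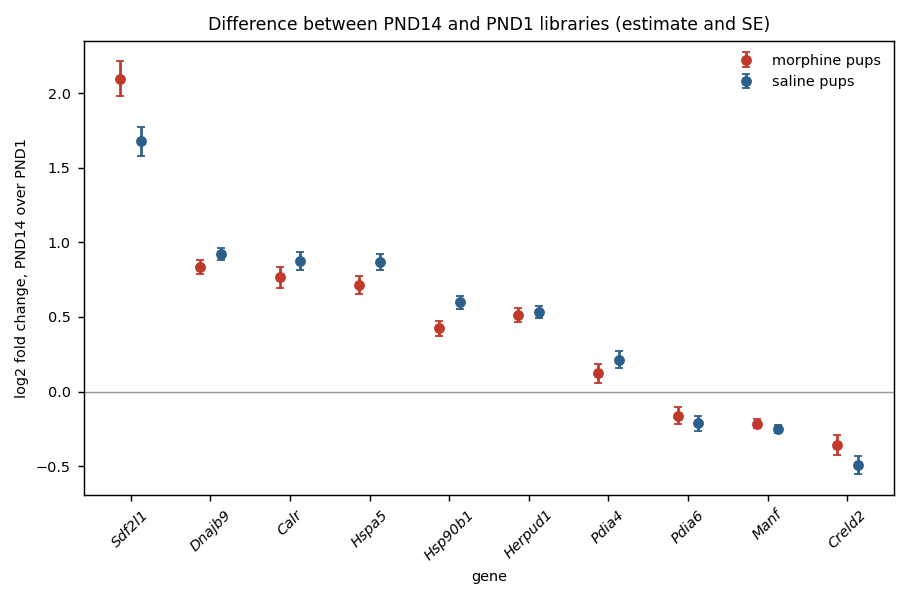
Estimated log2 fold change, PND14 over PND1, of the 10 genes in morphine pups (red) and saline pups (blue), with SE. Sdf2l1 stands highest at 2.10 and 1.68, and Pdia6, Manf and Creld2 lie below 0 in both arms.

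Other genes of the response were taken from lists chosen with earlier results known. Of 31 other ER folding, quality control and ATF6 or XBP1 target genes tested, 15 rose and 10 fell in morphine pups at PND14 against PND1, and 17 rose and 12 fell in saline pups (median log2 fold change 0.06 and 0.09). Dnajc3, an inhibitor of PERK, rose by 0.65 in morphine and 0.82 in saline pups, and Hyou1, an ER Hsp110, by 0.57 and 0.59. Derl2, of the degradation channel, had -0.49 in morphine pups. Of 6 sensors, 4 rose and 1 fell in each arm: Atf6 rose by 0.78 in morphine and 1.01 in saline pups, and Ern1 fell by 0.95 and 0.88. Of 14 cytosolic and mitochondrial chaperones, 11 rose in each arm, and 1 fell in morphine and 3 in saline pups. Hsph1, a cytosolic Hsp110, rose by 0.88 in morphine and 1.15 in saline pups. Of 19 ATF4 and CHOP arm genes tested, 10 rose in each arm, and 6 fell in morphine and 8 in saline pups; the mitochondrial folate enzyme Aldh1l2 fell by 2.54 in morphine and 2.69 in saline pups. The oligodendrocyte markers summed to between 2145 and 4979 CPM at PND14, against 105 to 172 CPM at PND1, and all 4 markers rose in both arms. Neuronal markers summed to between 2666 and 3400.1 CPM, against 1175 to 1327 CPM, and 3 of 4 rose and 1 fell in both arms. The 3 microglial and 4 endothelial markers rose in both arms. The part of such changes in cell makeup in the members' differences was not tested.

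The 3-Tri pups, taken at the same age, gave no call among the members against PND14 pups. In morphine pups 0 of 10 were called, where 0.8% of 22010 genes were; in saline pups 0 of 10, where 0% of genes were (edgeR; DESeq2 also called 0 members in each arm). At an unadjusted p under 0.05 there was 1 member in each arm, Calr with -0.17 in morphine and Hspa5 with -0.12 in saline pups, where 14% and 3.28% of genes were. Across all 72 libraries the step between day 1 and day 14 held between 12.9% (Pdia4) and 91.4% (Dnajb9) of a member's variance on the log2 scale. The difference between PND14 and 3-Tri held at most 4.08%, drug and sex label together at most 12.4%, and the spread within groups between 5.88% (Dnajb9) and 70.6% (Pdia4).

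The next comparison asks whether morphine changed the members within a window, and there the changes were small. At PND1, Dnajb9 rose in pups labelled male and Sdf2l1 fell with the sexes joined, and no other member passed by edgeR. DESeq2 also called Hsp90b1 in males, where it called 3498 of 19364 genes. With the sexes joined it also called Hsp90b1 and Pdia6, where it called 3912 of 18576 genes. By edgeR, 1 of 10 members was called in males, where 14.4% of 21714 genes were (6.31% higher). With the sexes joined it was 1 of 10, where 16.8% were (9.43% lower). In females it was 0 of 10 by edgeR and by DESeq2, where 0% of genes were by edgeR and 139 genes by DESeq2; 3 members (Sdf2l1, Pdia6 and Creld2) had an unadjusted p under 0.05, where 11.7% of genes did. The shares of members called by edgeR at the adjusted threshold are near or under the background.

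Dnajb9 in PND1 males had 24.8, 25.2, 25.6, 25.3, 26.0 and 24.2 CPM in morphine pups, against a lowest value of 18.1, a median of 21.6 and a highest of 24.8 CPM in 7 saline pups. Of the 6 morphine pups 4 were above every saline pup. The log2 fold change was 0.22 (SE 0.0555, adjusted p 0.0103, edgeR). After correction for GC content and gene length it was 0.10 and did not pass (adjusted p 0.27). The 6 measured Hox markers summed to between 4.43 and 70.4 CPM in these male morphine pups (median 41.3), against 0.0845 to 30.7 CPM in saline males (median 6.39), and the r of a library's deviation with GC content averaged -0.35 in morphine and 0.07 in saline males. The part of what the Hox markers measure in the Dnajb9 difference was not tested. In females the values were 19.7, 21.6, 20.8 and 19.5 CPM in morphine pups, against 19.9 to 23.0 CPM in saline pups (median 20.8), with -0.05 (SE 0.0633, adjusted p 0.833). The difference between the male and the female response was 0.26 and did not pass over all genes (edgeR, unadjusted p 0.00443, adjusted p 0.871). For this difference 0 of 10 members were called by either tool, and 5.47% of genes had an unadjusted p under 0.05. Male and female are the labels here. Each PND1 group held 1 library whose sex transcripts went against its label, among female morphine pups 1 of 4.

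Sdf2l1 at PND1 had 1.58, 2.96, 2.18 and 2.19 CPM in the female morphine pups, against 2.22 to 4.24 CPM in saline females (median 3.00). In males it lay between 1.78 and 2.58 CPM in morphine pups (median 2.04), against 1.66 to 3.42 CPM in saline pups (median 2.64). Only 1 of the 10 morphine pups was above the saline median, while the ranges overlapped. The joined log2 fold change was -0.41 (SE 0.119, adjusted p 0.0195, edgeR), with -0.52 in females (adjusted p 0.249) and -0.30 in males (adjusted p 0.213). The joined call was lost without female morphine replicate 1 (-0.35, adjusted p 0.0509), without the 4 libraries whose sex transcripts went against the label (-0.38, adjusted p 0.0504) and after GC and length correction (-0.30, adjusted p 0.0975). It was also lost with that correction and the replicate number as a block (-0.27, edgeR, adjusted p 0.227).

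Hsp90b1 and Pdia6, the ER Hsp90 and a disulfide isomerase, came close to the threshold by edgeR. Hsp90b1 at PND1 averaged 128 ± 8.48 CPM in morphine pups and 118 ± 9.001 CPM in saline pups (SD, n = 10 and 14), and all 10 morphine pups were above the saline median. Its joined log2 fold change was 0.11 (SE 0.0387, adjusted p 0.0588). Pdia6 averaged 102 ± 5.27 CPM in morphine pups and 110.3 ± 8.73 CPM in saline pups, and 0 of 10 morphine pups were above the saline median, with -0.11 (SE 0.0404, adjusted p 0.0638). DESeq2 called both (adjusted p 0.043 and 0.0441), and each passed by edgeR when certain single libraries were left out. After GC and length correction Hsp90b1 had 0.03 (adjusted p 0.608) and Pdia6 -0.12, which passed (adjusted p 0.0435). Calr had 0.14 (SE 0.0644, adjusted p 0.15). Hspa5 had 0.07 (SE 0.0531, adjusted p 0.404), with an interval of 2 SE between -0.04 and 0.17. The estimates of the 10 members were 5 above and 5 below 0, with a median of -0.02.

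**Figure D3:**
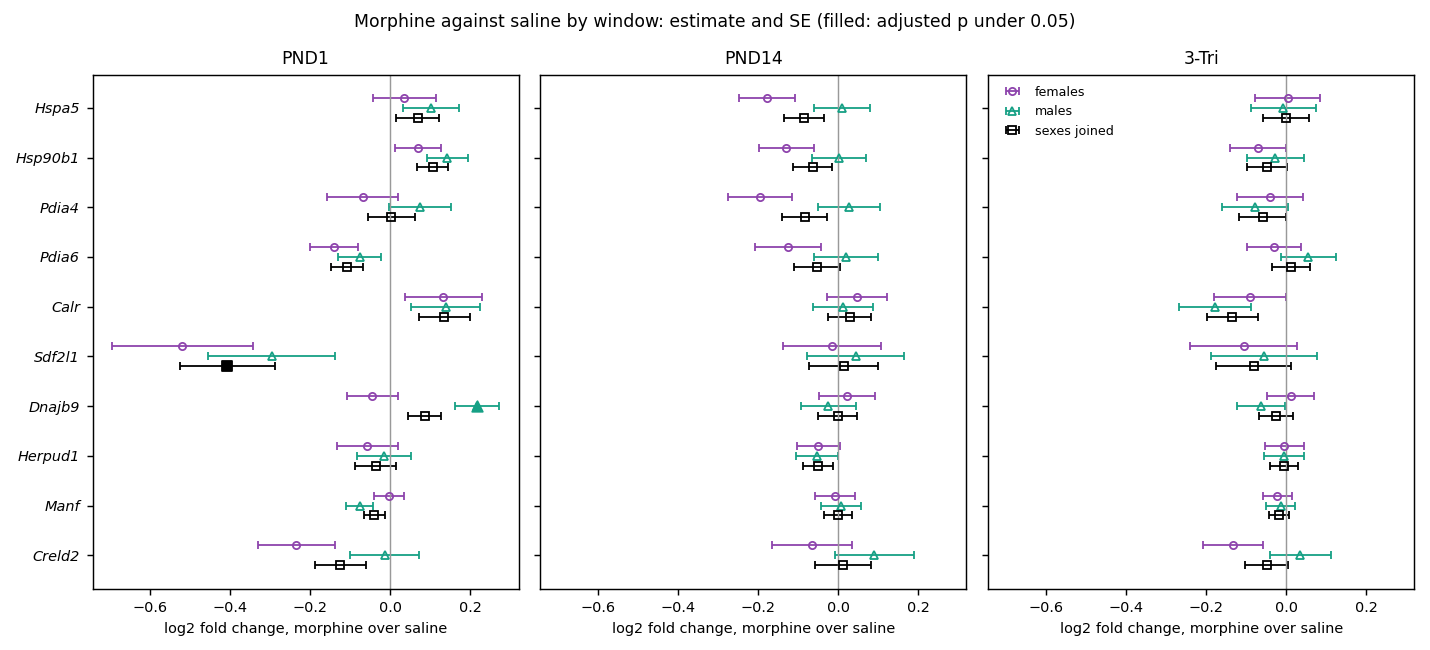
Estimated log2 fold change, morphine over saline, of each gene with SE in the PND1, PND14 and 3-Tri windows, for pups labelled female, male and with the sexes joined; filled symbols passed an adjusted p of 0.05. Only Dnajb9 in PND1 males (0.22) and Sdf2l1 with the sexes joined at PND1 (-0.41) are filled.

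Other ER and stress genes gave calls of both signs at PND1, where 16.8% of all genes were called with the sexes joined (9.43% lower). With the sexes joined, 3 of 31 other ER folding and quality control genes rose and 2 fell. Canx, the membrane-bound lectin chaperone related to Calr, rose by 0.14 (SE 0.0295, adjusted p 0.00231), and Ufm1, a ubiquitin-like modifier of the ER, rose by 0.11. Fkbp2, an ER prolyl isomerase, fell by 0.28 and Os9, a lectin of ER-associated degradation, fell by 0.13. Of 14 cytosolic and mitochondrial chaperones, 4 rose and 0 fell, among them Hsph1 (0.17) and Hsp90aa1 (0.11). Of 19 ATF4 and CHOP arm genes 0 rose and 3 fell: Ddit4 by 0.38, Atf5 by 0.23 and Chac1 by 0.45. None of 6 sensors was called. Beside these, 2 of 5 meningeal and fibroblast markers, 1 of 5 choroid plexus markers and 1 of 4 endothelial markers fell with the sexes joined, while 1 of 4 astrocyte and 2 of 4 neuronal markers rose and 1 neuronal marker fell; the meningeal markers summed to between 198 and 296 CPM in morphine pups, against 225 to 402 CPM in saline pups. The 6 measured Hox markers summed to between 0.514 and 70.4 CPM in morphine pups, against 0 to 38.1 CPM in saline pups. Their part in the members' values was not tested.

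At PND14, 0 of 10 members were called in males, in females or with the sexes joined, where 0.28%, 0% and 1.69% of 19636 genes were (edgeR; DESeq2 also called 0 members in each). In females 2 members, Hspa5 and Pdia4, had an unadjusted p under 0.05, where 10.5% of genes did, and in males and with the sexes joined 0 members did. The lowest p-values were in females. Pdia4 lay between 39.2 and 43.6 CPM in 6 female morphine pups (median 41.2), against 43.8 to 54.7 CPM in 6 saline females (median 45.1). The ranges did not overlap, as for 0.413% of 22010 genes in this comparison, but the log2 fold change of -0.20 (SE 0.0790) did not pass (adjusted p 0.411). Hspa5 averaged 251 ± 19.5 CPM in morphine and 285 ± 16.1 CPM in saline females, with -0.18 (SE 0.0706, adjusted p 0.407). In males both were near 0 (0.03 and 0.01), and the difference between the responses did not pass for any member (the lowest unadjusted p was 0.0535, for Pdia4).

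At 3-Tri, 0 of 10 members were called in males, females or with the sexes joined, where 0% of 19730 genes were in each (edgeR). DESeq2 also called 0 members. The paper, which compared pairs of conditions with DESeq2, did report genes passing an adjusted p in this window. From nominal p-values it reported enrichment of protein processing genes, including the role of the ER, in males at PND1 and in this window. It also named Hspa5 among its genes by adjusted p, without giving the window. The authors' DESeq2 fits were not repeated here. With the sexes joined 1 member had an unadjusted p under 0.05, where 4.88% of genes did, and in males and in females 0 members did. Calr had the lowest p, with 367 ± 40.2 CPM in morphine and 404 ± 54.6 CPM in saline pups (n = 12 each), a joined log2 fold change of -0.13 (SE 0.0636, unadjusted p 0.0447, adjusted p 0.97). The highest saline value, 543 CPM, was that of male replicate 1, the library of fewest counts. By edgeR, none of the other ER, sensor, ATF4 and CHOP arm or cytosolic chaperone genes was called for morphine at PND14, at 3-Tri or in PND1 females.

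The responses to morphine were also set against each other between windows, in a fit of all 72 libraries. Between 3-Tri and PND1, 1 of 10 members differed, where 8.43% of 22010 genes did (3.85% lower): the Calr response was lower at 3-Tri by 0.27 (log2 difference -0.27, SE 0.0902, adjusted p 0.0485). It did not pass without the 2 libraries of fewest counts (-0.23, adjusted p 0.0754), without the libraries against their sex label (-0.39, adjusted p 0.0991) or without a filter on low counts (-0.26, adjusted p 0.0672). Between PND14 and PND1, 0 of 10 differed by edgeR, where 13.3% of genes did. Sdf2l1 had 0.42 (SE 0.153, adjusted p 0.0545, edgeR) and Hsp90b1 -0.17 (adjusted p 0.0765). DESeq2 called both (0.41, adjusted p 0.0432, and -0.18, adjusted p 0.0431), where it called 3346 of 18069 genes. These 2 members alone had an unadjusted p under 0.05 by edgeR. Between 3-Tri and PND14, 0 of 10 differed by either tool, and 0 had an unadjusted p under 0.05, where 0.182% of genes differed by edgeR. The comparisons of PND1 with either day 14 window share the PND1 libraries.

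The last question is whether the members vary together between pups of a group. Each gene's log2 CPM was centred on the mean of its group, so that window, drug and sex label are removed, and r was computed over the 24 libraries of each window. Hspa5 went with most of the other chaperones in each window. Hspa5 followed Hsp90b1 with r = 0.61 at PND1, 0.83 at PND14 and 0.90 at 3-Tri (Spearman rho 0.64, 0.78 and 0.90; adjusted p 0.00914, 0.00063 and 9e-05, permutation within groups, 100000 resamples, two-sided, over 27 relations). It followed Pdia6 with r = 0.61, 0.88 and 0.92 (rho 0.60, 0.79 and 0.93; adjusted p 0.0068, 9e-05 and 9e-05). Several of these reached 1e-05 before adjustment, the smallest p that the permutations can give.

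Hspa5 and Calr had r = 0.83 at PND1, 0.49 at PND14 and 0.64 at 3-Tri (rho 0.84, 0.57 and 0.75; permutation adjusted p 0.000135, 0.108 and 0.00854). At PND14 rho passed while r did not (permutation adjusted p of rho 0.0246), as with Pdia4 (0.0304), and for Sdf2l1 at PND14 r passed while rho did not (0.071). Without the library of fewest counts in each day 14 window, r was 0.71 at PND14 and 0.87 at 3-Tri. In those 2 libraries the depth was lowest, and in 3-Tri male saline replicate 1 Calr and Dnajb9 were the highest of their group at 543 and 55.0 CPM. Hspa5 and Sdf2l1 had r = 0.67, 0.56 and 0.65 (rho 0.59, 0.45 and 0.69; permutation adjusted p 0.00533, 0.0182 and 0.00618), and Hspa5 and Pdia4 r = 0.75, 0.55 and 0.63 (rho 0.76, 0.57 and 0.70; permutation adjusted p 0.000594, 0.0689 and 0.00914). Without the 2 libraries farthest from the median of Hspa5 in each window, r of Hspa5 with Hsp90b1, Pdia6 and Calr was between 0.43 and 0.94, with Sdf2l1 between 0.48 and 0.58, and with Pdia4 0.72 at PND1, 0.35 at PND14 and 0.46 at 3-Tri; the PND14 relation with Pdia4 rests in part on male morphine replicates 2 and 3. Leaving out the 12 libraries of 3-Tri whose sex transcripts went against the label, r was 0.88 with Hsp90b1, 0.89 with Pdia6, 0.55 with Sdf2l1, 0.43 with Calr and 0.39 with Pdia4.

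**Figure D4:**
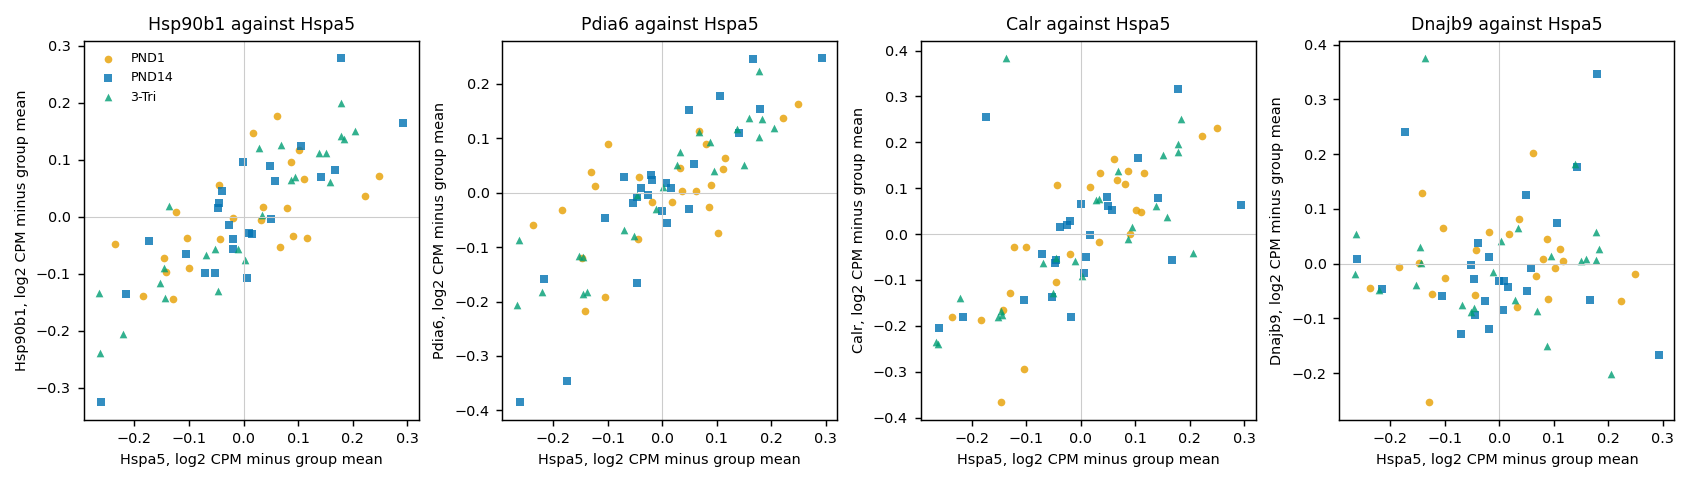
Hsp90b1, Pdia6, Calr and Dnajb9 plotted against Hspa5 in 72 libraries, both axes as log2 CPM minus the group mean, coloured by window (PND1, PND14, 3-Tri). Hsp90b1 and Pdia6 rise with Hspa5 in each window (r between 0.61 and 0.92), Calr does so with a few libraries apart, and Dnajb9 shows no slope (r between -0.13 and 0.09).

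Of the stress-responsive members, only Creld2 at PND1 passed with Hspa5. Dnajb9 had r = 0.09, 0.07 and -0.13 with Hspa5 at PND1, PND14 and 3-Tri (rho 0.00, 0.07 and 0.05; permutation adjusted p 0.744, 0.836 and 0.698). Herpud1 had r = -0.25, 0.28 and 0.41, and Manf -0.32, 0.30 and 0.20, none past the threshold (permutation adjusted p between 0.108 and 0.412). Creld2, which holds an ERSE, followed Hspa5 at PND1 with r = 0.70 (rho 0.69, permutation adjusted p 0.00127) but had 0.45 at PND14 (adjusted p 0.165) and 0.21 at 3-Tri (adjusted p 0.412), and at 3-Tri r was 0.49 without female morphine replicate 5 and male saline replicate 3. Whether the r of a pair differs between windows was not tested.

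Over all 45 pairs of members, the median r was 0.22 at PND1, 0.29 at PND14 and 0.40 at 3-Tri. The share of pairs over 0.5 was 40%, 22.2% and 37.8%, beside 4.87%, 3.97% and 8.71% of all pairs of the 22010 genes, whose median r was near 0. The highest were Pdia6 with Creld2 at PND1 (0.84), and Hspa5 with Pdia6 at PND14 (0.88) and at 3-Tri (0.92). The lowest were Hsp90b1 with Manf at PND1 (-0.56), Sdf2l1 with Dnajb9 at PND14 (-0.27) and Dnajb9 with Creld2 at 3-Tri (-0.30). Among the 15 pairs of the 6 chaperones and folding enzymes the median was 0.65, 0.55 and 0.73. Among the 6 pairs of the 4 stress-responsive genes it was -0.05, 0.09 and 0.14. This grouping was made after the values were seen, so the contrast follows in part from the choice and is no separate result. Pairs across the sets lay between -0.56 and 0.84 over the windows, with Calr and Dnajb9 at 0.71 at PND14. In that pair, male morphine replicate 1 stood highest in both genes (0.32 and 0.35 log2 above the group mean). Female morphine replicate 4, the PND14 library of fewest counts, came next in both (0.25 and 0.24). The r without these libraries was not computed.

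**Figure D5:**
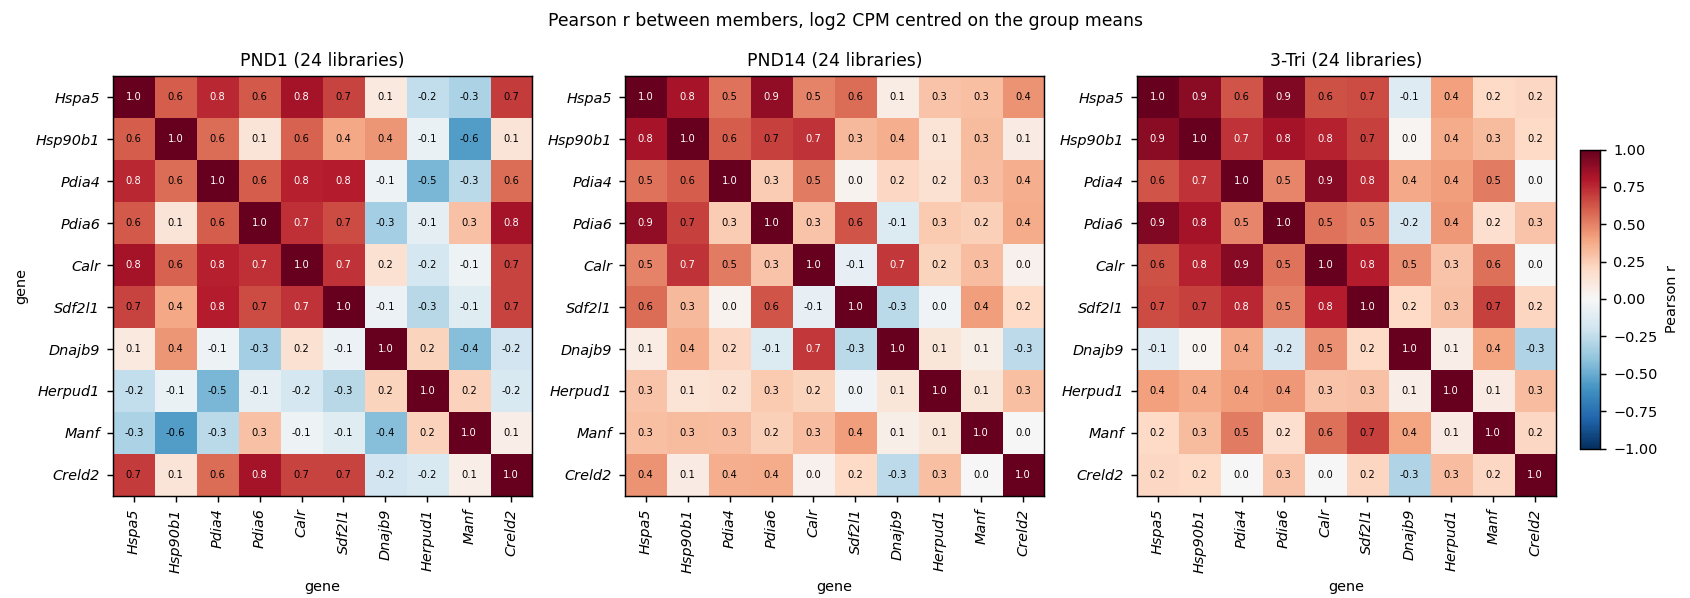
Pearson r between each pair of the 10 genes in the PND1, PND14 and 3-Tri windows (24 libraries each, log2 CPM centred on group means; colour scale between -1 and 1). Pairs among Hspa5, Hsp90b1, Pdia4, Pdia6, Calr and Sdf2l1 are mostly red, with median r of 0.65, 0.55 and 0.73. This set was grouped after the values were seen, and pairs such as Calr with Sdf2l1 at PND14 stand apart. The rows of Herpud1 and Dnajb9 are mostly pale, apart from pairs such as Calr with Dnajb9 at PND14 (0.71). PND14 male morphine replicate 1 and female morphine replicate 4 stood highest in both of those genes.

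Each member was also ranked, over all 72 libraries, among 14405 genes with a mean log2 CPM above 2 by its r with the mean of the other 9 (as group-centred z values). Hspa5 and Calr ranked 2 (r = 0.79 and 0.78), Hsp90b1 3 (0.72), Pdia4 and Pdia6 11 (0.69 and 0.66), and Sdf2l1 29 (0.61). Creld2 ranked 938 (0.33), Manf 1810 (0.26), Herpud1 4193 (0.13) and Dnajb9 5077 (0.10). These are descriptions, since all points come from the same libraries.

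The genes other than members most like their mean were in part of the same compartment. The closest was 1810014B01Rik (r = 0.81) and the fifth Gm15344 (0.72), and both overlap Hsp90b1 on chromosome 10 in the annotation. Gm15344 lies on the same strand as Hsp90b1. 1810014B01Rik lies on the other strand, and the strand setting of the counting is not given in the sources used here. The reads of these 2 genes and those of Hsp90b1 therefore cannot be fully told apart. The others were Pdia3 (0.75), an ER disulfide isomerase that works with Calr, Serpinh1 (0.73), the collagen chaperone of the ER, Hyou1 (0.73), Trim17 (0.72), Hnrnpc (0.72), an RNA-binding protein, Xbp1 (0.71), the transcription factor of the IRE1 branch, Hist3h2a (0.70) and Stip1 (0.70), a cytosolic Hsp70 and Hsp90 co-chaperone. Of 30 other ER genes ranked, 6 were in the first 100 (Pdia3, Hyou1, Xbp1, Canx, Ostc and Rcn3), with a median r of 0.16 beside 0.01 over all genes. Of 11 cytosolic and mitochondrial chaperones ranked 2 were, Hsph1 and Hspa8 (median 0.29), and of 15 ATF4 and CHOP arm genes 0 were (median 0.09). The 6 sensors had a median of -0.09, with Atf6b at 0.63.

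Finally the mean of the members was set against technical measures, the gene lists and cell type markers in each window (51 relations). It went with the other ER folding genes with r = 0.62 at PND1, 0.76 at PND14 and 0.80 at 3-Tri (rho 0.68, 0.70 and 0.82; permutation adjusted p 0.0176, 0.00714 and 0.00459), and without the 2 farthest libraries r was 0.52, 0.66 and 0.73. It went with the cytosolic chaperones at 3-Tri (r = 0.72, rho 0.71, permutation adjusted p 0.00892). With log2 total count r was -0.26, -0.17 and -0.17, and with the library's deviation along GC content 0.37, 0.24 and 0.16, none past the threshold. Of the markers, microglia went with the members at PND1 (r = 0.69, rho 0.73, permutation adjusted p 0.00938), and astrocytes (r = 0.68, rho 0.68, permutation adjusted p 0.00714) and meninges and fibroblasts (r = 0.63, rho 0.59, permutation adjusted p 0.0114) at 3-Tri. Without the 2 farthest libraries r was 0.68, 0.65 and 0.49. Their part in the members' covariance was not tested.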

How the data were processed

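RNA of 72 pups was sequenced in pairs on a NovaSeq from NEBNext Ultra II libraries. The deposited counts are whole read counts per gene, which the authors made with Trim Galore 0.6.6, HISAT2 2.2.1 against mm10, removal of duplicates with Picard MarkDuplicates and featureCounts 2.0.1 on GENCODE M25; the strand setting is not given in the sources used here. The authors' comparison tables hold their fold changes, p-values and gene names; only the names were used.

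Counts were tested with edgeR 4.0.16 (R 4.3.3): filterByExpr with a minimum count of 10, TMM scaling, quasi-likelihood test, Benjamini-Hochberg over all genes tested, threshold 0.05. CPM is scaled by TMM over 72 libraries; log2 CPM for correlations has a prior count of 2. Windows were fitted separately for morphine against saline, and together for windows. Correlations used permutation within groups. DESeq2 1.42.0, GC and length correction, other scalings, filters and left-out libraries were alternatives. The fits were also run on simulated counts of independent libraries. These had no litters, no differences along GC content and no exchanged sex labels, so the run says nothing about those. Depth limits the precision; Sdf2l1 had 22 counts in its lowest library and a median of 104.

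Named genes were all members, up to 4 of each list with the smallest p in a comparison, and the 10 genes nearest the members' mean in r. Members and lists were chosen with earlier results of these data known. No 2 libraries agreed within sampling noise.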

Additional observations from a re-analysis of the deposited data

Results flagged for a closer look

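Single libraries stood apart from the rest of their group in 4 of 120 combinations of gene and group, where chance gives about 1 in 20 groups. Dnajb9 was at 50.7 CPM in PND14 male morphine replicate 1 (nearest pup 40.1 CPM), at 45.5 CPM in PND14 female saline replicate 12 (nearest 40.6 CPM) and at 44.7 CPM in 3-Tri female saline replicate 7 (nearest 39.6 CPM). Manf was at 108.9 CPM in 3-Tri male saline replicate 1 (nearest 100.8 CPM), which is the library of fewest counts. The response of Calr to morphine was lower at 3-Tri than at PND1 by a tested difference of -0.27 on the log2 scale, as given in the report.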

How the results depend on the processing

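No called result changed sign under the alternatives tried. Numbers of members called changed in these cases. In PND1 males, DESeq2 called 2 members, and 0 were called with GC and length correction, with or without the replicate block. With the sexes joined at PND1, GC and length correction called Pdia6 in place of Sdf2l1, DESeq2 called 3 and 0 were called without the libraries against their sex label. For the difference of responses between PND14 and PND1, DESeq2 called 2. Leaving out the 2 libraries of fewest counts gave 1, where 3108 of 21926 genes were called. For that between 3-Tri and PND1 the count was 0 without a filter on low counts, without the 2 libraries of fewest counts and without the libraries against their sex label. With the replicate number as a block, the joined PND1 fit called 4 members (Sdf2l1, Hsp90b1, Pdia6 and Calr), where it called 3970 of 21714 genes. With GC and length correction as well it called 2 (Pdia6 and Calr), where it called 1502 of 21714 genes. Calr had 0.16 in both fits (edgeR, adjusted p 0.0193 and 0.0271). Same-numbered libraries of the morphine and saline groups did not all deviate together (r between -0.38 and 0.47 over all windows). At PND1 r lay between -0.12 and 0.27 in males and between -0.14 and 0.01 in females. These values do not show whether the numbers pair samples, so this is not read as a paired estimate. Leaving out each PND1 library in turn gave between 1 and 2 called members in males (2 without morphine replicate 5, saline replicate 8 or saline replicate 13), between 0 and 3 with the sexes joined (3 without male morphine replicate 5 or female saline replicate 7, and 2 without male morphine replicate 8, female saline replicate 6 or male saline replicates 8, 13 or 14), and 0 in females and in the difference between the sexes. The count of 0 came without female morphine replicate 1, and Hsp90b1 or Pdia6 passed in the others that rose. The number of all genes called moved as well. In males the fits with 2 members called 4944, 3663 and 2972 of 21697 genes, in the order given. With the sexes joined, the fits with 3 members called 5029 of 21697 and 3779 of 21701 genes. Those with 2 members called between 3089 and 3982 genes, and the fit with 0 members 3199 of 21889. The median r of the member pairs at PND1 was 0.31 after GC and length correction, beside 0.22 without it, and under the other alternatives it lay between 0.18 and 0.24. Leaving out the libraries against their sex label in the covariance was an alternative chosen after seeing the data. Over all genes, edgeR called 3124 genes in PND1 males, and 1225 with GC and length correction, 1828 with the replicate block, 101 with both and 2066 with only the groups compared. With the sexes joined it called 3653, and 1947 with the correction and 1502 with correction and block. The 3-Tri minus PND1 response gave 1855 genes, and 1124 without a filter, 1022 with the correction and 50 without the libraries against their sex label; the PND14 minus PND1 response gave 2931, and 1716 with the correction. At PND14 with the sexes joined, edgeR called 332 genes and DESeq2 680, and 98 were called with the block, 158 with block and correction and 644 with ID number as a random effect. In PND14 males edgeR called 55 genes and DESeq2 196, and 31 were called with the block, 85 with the correction, 124 with only the groups compared and 101 with ID number as a random effect; in PND14 females edgeR called 0 and DESeq2 28. Between 3-Tri and PND14, edgeR called 176 genes in morphine pups and DESeq2 387, with 277 after the correction and 2 without the libraries against their sex label, and 40 genes differed in response (74 by DESeq2, 25 without a filter, 2 without the 2 libraries of fewest counts and 0 without the libraries against their sex label). The cause of these differences was not tested. Depth limits Sdf2l1 most, at a median of 104 counts.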
